A study of Mus musculus with 16 samples.

Results

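Genes of alternatively activated macrophages were followed in 16 mouse liver tumours. The 8 genes Retnla, Arg1, Mrc1, Chil3, Cd163, Il4ra, Mgl2 and Clec10a were chosen by symbol from the 17097 genes that the arrays measured. All 8 were found, each with 1 probe set (1449015_PM_at, 1419549_PM_at, 1450430_PM_at, 1419764_PM_at, 1419144_PM_at, 1423996_PM_a_at, 1438467_PM_at and 1419605_PM_at in that order). They were chosen when the differences of Retnla, Arg1 and Mrc1 between Combination and Placebo tumours were known. The members' values in that comparison are therefore a description: no p is given for them and nothing is read from how many passed.

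Macrophages exposed to interleukin-4 or interleukin-13 take on a state called alternative activation, in which the receptor subunit encoded by Il4ra passes the signal to the transcription factor STAT6. Mouse macrophages in this state make Arg1, the arginase that splits arginine into ornithine and urea, the secreted proteins Retnla (also called RELM-alpha or Fizz1) and Chil3 (Ym1), and the surface lectins Mrc1 (CD206), Mgl2 and Clec10a. Cd163, the scavenger receptor for haemoglobin bound to haptoglobin, marks tissue macrophages. In tumours such macrophages are known for support of vessel growth and tissue repair and for restraint of T cells. Retnla is also made in white fat of mice, and Arg1 is the urea cycle enzyme of hepatocytes, so their RNA in a whole tumour need not come from macrophages. Which cell types gave the RNA of any of the 8 genes was not tested.

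The tumours were grown from Hepa1-6 cells, a mouse hepatoma line, implanted with 50% Matrigel in the right flank of male C57BL/6 mice aged 5 weeks. Treatment started at 200 to 300 mm3 and tumours were taken on day 14. Placebo mice (n = 4) received hamster IgG as the control antibody and AntiPD1 mice (n = 3) the antibody J43 against the T cell checkpoint receptor PD-1, both at 10 mg/kg into the abdomen every 3 days for 5 doses. Cabozantinib, an oral inhibitor of the kinases VEGFR2, MET and AXL, was given daily at 30 mg/kg, alone (n = 5) or with the anti-PD1 antibody (Combination, n = 4). The labels do not say if the Cabozantinib mice had control IgG as well. RNA of the whole tumour was measured, so a larger number of macrophages and more RNA of a gene per macrophage cannot be told apart. A subcutaneous implant also holds host tissue of the flank, and no label gives the amount. Each array is taken as 1 tumour; the labels do not say outright that each came from a separate mouse, so p-values measure the spread between these 16 samples. The titles also carry a number whose meaning is not stated, and 4 such numbers each fall on 2 tumours. These are Cabozantinib replicates 2 and 3, Placebo replicate 2 with AntiPD1 replicate 1, Placebo replicate 4 with AntiPD1 replicate 3, and Cabozantinib replicate 5 with Combination replicate 3. Tumours with the same number may not be independent, in which case the p-values may be too small or too large.

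All values are log2 array signals on the authors' normalized scale, where 1 unit is a doubling. The median of all probe sets lay between 4.92 and 5.13 on every array, and signals near that level cannot be separated from background in these files. Macrophages were present in every group: Adgre1, a surface receptor of macrophages, averaged 8.63 ± 0.58 (SD, n = 4) in Placebo tumours, and C1qa, a complement gene of tissue macrophages, 11.06 ± 0.44. The pan-macrophage level, the mean of 18 genes that macrophages express in any state, was expressed as the deviation from its mean over 16 tumours. It ran from -1.15 to 0.08 in Placebo, 0.44 to 0.75 in AntiPD1, -2.0 to 0.43 in Cabozantinib and 0.43 to 1.08 in Combination tumours. Tumours with the antibody were thus above those without it, except that Cabozantinib replicate 3 lay just above the lowest Combination tumour. A mean of 3 Y-linked genes, which the male hosts carry, followed a similar course, from -0.89 to 0.09 in Placebo, 0.43 to 0.77 in AntiPD1, -1.02 to 0.15 in Cabozantinib and 0.25 to 1.0 in Combination.

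Il4ra, the receptor chain shared by interleukin-4 and interleukin-13, read 5.95, 4.90, 5.93 and 5.35 in the 4 Placebo tumours and 6.38, 6.54 and 5.88 in the AntiPD1 tumours. The Cabozantinib tumours read 5.50, 5.17, 6.34, 6.34 and 5.95 and the Combination tumours 6.51, 6.97, 6.39 and 6.17. Combination tumours lay wholly above Placebo, whereas AntiPD1 and Cabozantinib each overlapped Placebo. The signal was modest, and 1 Placebo tumour was below the median of all probe sets.

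Arg1 read 11.23, 10.01, 10.41 and 10.43 in Placebo and 12.02, 11.59 and 11.96 in AntiPD1 tumours. Its values were 11.66, 10.41, 12.11, 12.14 and 11.88 in Cabozantinib and 12.42, 12.65, 12.34 and 11.68 in Combination tumours. The AntiPD1 and Combination groups were both wholly above Placebo. Cabozantinib tumours were also above every Placebo tumour except for replicate 2, whose 10.41 lay among the Placebo values.

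Retnla, a secreted cysteine-rich protein of mouse alternatively activated macrophages, ran in group means from 8.0 ± 0.93 (SD, n = 4) in Placebo to 11.65 ± 0.40 (n = 4) in Combination. The Placebo tumours read 8.45, 6.80, 7.81 and 8.96 and the AntiPD1 tumours 11.29, 11.50 and 10.40. The Cabozantinib tumours were dispersed, at 10.15, 8.46, 11.85, 9.86 and 8.91, while the Combination tumours stood together at 11.69, 11.47, 12.18 and 11.25. Every tumour that had received the antibody exceeded every Placebo tumour, and 2 of the 5 Cabozantinib tumours lay within the Placebo range.

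Chil3, a secreted chitinase-like protein, varied most within groups. Placebo tumours read 9.68, 4.63, 7.56 and 7.81, of which the 4.63 of replicate 2 was below the median of all probe sets. AntiPD1 tumours read 9.57, 8.98 and 7.95, Cabozantinib tumours 10.12, 7.54, 11.28, 9.22 and 10.00, and Combination tumours 10.04, 11.84, 11.07 and 10.32. Combination tumours were wholly above Placebo and AntiPD1 tumours, whose own ranges overlapped. Chil3 has a close relative beside it in the genome, Chil4, whose group means ran in the same order, at 6.95 ± 1.78 (SD, n = 4), 8.14 ± 1.11 (n = 3), 9.06 ± 1.54 (n = 5) and 10.53 ± 1.05 (n = 4) in Placebo, AntiPD1, Cabozantinib and Combination. The 2 genes are close paralogs, and how far each probe set reads the other's RNA was not tested.

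The start regions of Retnla and Chil3 are shown because these secreted proteins were members called higher relative to macrophage genes in comparisons described later, and that of Chil4 for its likeness to Chil3. Start regions were matched for 6 of the 8 members, and Arg1 and Clec10a are named only. Sequences are the 250 bases upstream of the 1 start that the table gives for a gene, from RefSeq on build GRCm38.p6, 5′ to 3′ on the gene's strand. Capitals mark matches on either strand to TTCNNNNGAA or TTCNNNGAA, the forms read by STAT6 and by other STAT proteins, or to TTGCNNAA, a form read by C/EBP proteins. Retnla lies at chr16:48842359-48842608 on the plus strand, Chil3 at chr3:106167565-106167814 and Chil4 at chr3:106219480-106219729, both on the minus strand.
Retnla: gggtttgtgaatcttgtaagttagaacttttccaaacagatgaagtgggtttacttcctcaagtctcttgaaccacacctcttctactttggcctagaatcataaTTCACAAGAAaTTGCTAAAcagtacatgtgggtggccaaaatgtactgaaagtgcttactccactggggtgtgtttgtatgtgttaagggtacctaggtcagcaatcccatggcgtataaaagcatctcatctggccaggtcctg
Chil3: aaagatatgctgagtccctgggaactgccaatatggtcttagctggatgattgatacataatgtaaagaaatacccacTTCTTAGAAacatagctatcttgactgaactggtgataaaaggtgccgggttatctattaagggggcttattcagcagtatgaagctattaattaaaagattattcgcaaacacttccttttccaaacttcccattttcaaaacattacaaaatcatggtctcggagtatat
Chil4: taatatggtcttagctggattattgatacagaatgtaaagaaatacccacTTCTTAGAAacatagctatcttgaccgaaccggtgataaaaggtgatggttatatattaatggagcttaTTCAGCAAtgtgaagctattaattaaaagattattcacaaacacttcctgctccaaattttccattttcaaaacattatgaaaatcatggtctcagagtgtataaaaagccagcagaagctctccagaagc
In Retnla the 10-base match begins 145 bases upstream of the start and the C/EBP form begins 134 bases upstream, on the gene's own strand. The TTCNNNNGAA form occurs in 5.85% of 32851 start regions of this length, TTCNNNGAA in 7.02% and TTGCNNAA in 9.56%. Chil3 and Chil4 hold the same 9 bases, 172 and 200 bases upstream, and at their best ungapped alignment 150 of 222 bases were identical (67.6%). Mrc1 and Il4ra hold none of the 3 forms in this window. Neither do Cd163 and Mgl2, but their windows reach past the first annotated base of the gene and so lie partly inside it. A match is a description of the letters and not evidence of binding.

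Mrc1, the mannose receptor, read 9.62, 7.96, 9.86 and 9.39 in Placebo and 10.94, 11.12 and 10.31 in AntiPD1 tumours. Cabozantinib tumours read 9.43, 8.28, 10.73, 10.28 and 9.76, across the Placebo range and above it, and Combination tumours 11.01, 11.31, 11.23 and 10.79. Both groups that had received the antibody were wholly above Placebo, and Combination was also wholly above Cabozantinib.

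Mgl2 and Clec10a encode galactose-type lectins of macrophages and dendritic cells, and no annotated gene lies between them on mouse chromosome 11. Clec10a read 7.77, 6.34, 8.11 and 8.32 in Placebo, 9.04, 9.72 and 8.84 in AntiPD1, 8.24, 6.37, 8.72, 8.45 and 7.68 in Cabozantinib and 9.66, 9.95, 9.75 and 8.93 in Combination tumours. All 7 tumours with the antibody exceeded all 9 without it. Mgl2 moved over a narrower range, at 9.79, 8.69, 9.63 and 9.04 in Placebo, 9.86, 10.31 and 9.87 in AntiPD1, 9.46, 8.57, 9.63, 8.93 and 9.86 in Cabozantinib and 10.01, 9.85, 9.92 and 9.95 in Combination. The lowest AntiPD1 tumour and the highest Placebo tumour differed by less than 0.1 for Mgl2.

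Cd163 was near background in most tumours. Placebo tumours read 4.12, 4.12, 4.44 and 4.63, all below the array medians, AntiPD1 tumours 5.26, 5.04 and 4.17, and Cabozantinib tumours 4.56, 4.66, 4.69, 6.10 and 4.24. The 4 Combination tumours, at 6.36, 5.54, 5.42 and 5.82, were all above the highest array median and wholly above the Placebo and AntiPD1 groups. Since the Placebo values lie below the level that the arrays separate from background, the fold of Cd163 against Placebo may be understated.

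**Figure D1:**
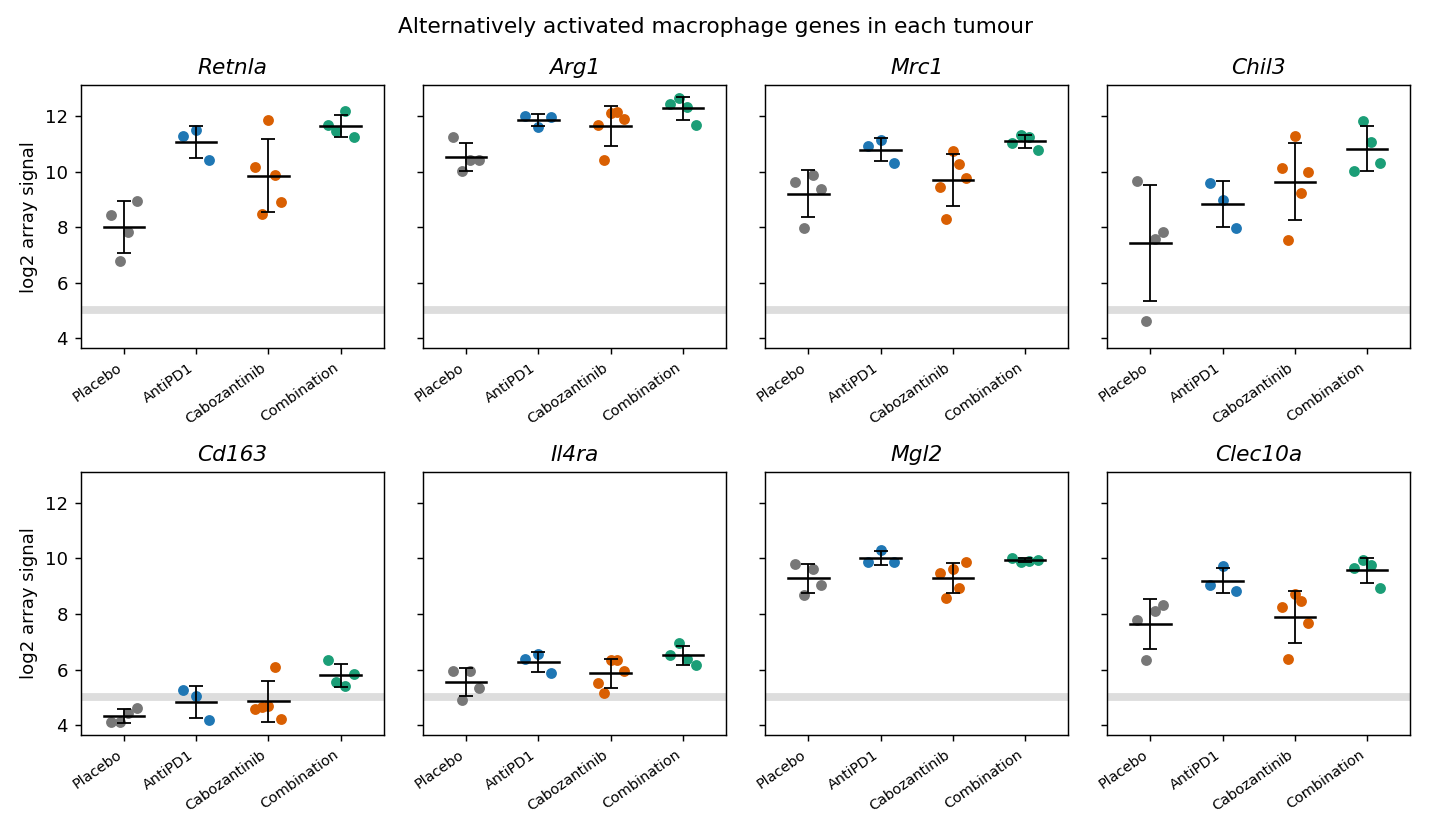
Log2 array signal (vertical axis) of the 8 genes in 16 tumours by treatment group (horizontal axis); each point is 1 tumour, horizontal lines are group means, error bars are SDs and the grey band spans the array medians of 4.92 to 5.13. Combination tumours lie above all Placebo tumours for each of the 8 genes, and Cabozantinib tumours overlap Placebo for each.

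In order of group means Placebo was lowest for all 8 genes, and Combination was highest for all except Mgl2, where AntiPD1 averaged 10.02 ± 0.26 (SD, n = 3) and Combination 9.93 ± 0.07 (n = 4). AntiPD1 came second for Retnla, Arg1, Mrc1, Il4ra and Clec10a. For Chil3 the second place was held by Cabozantinib, at 9.63 ± 1.38 (n = 5) against 8.84 ± 0.82 (n = 3) in AntiPD1. The Cd163 means of Cabozantinib and AntiPD1, 4.85 ± 0.72 and 4.82 ± 0.58, and the Mgl2 means of Cabozantinib and Placebo, 9.29 ± 0.53 and 9.28 ± 0.51, differed by far less than their SDs. Single tumours were low across the genes: Placebo replicate 2 was the lowest of its group for 8 of 8 genes and Cabozantinib replicate 2 for 7 of 8.

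Combination tumours exceeded Placebo tumours for all 8 genes. Retnla differed by 3.65 ± 0.61 (SE) on the log2 scale, a 12.5-fold difference, and Chil3 by 3.40 ± 0.91, which is 10.5-fold. The lectins differed by 1.88 ± 0.47 for Mrc1, 1.94 ± 0.49 for Clec10a and 0.65 ± 0.27 for Mgl2. The remaining differences were 1.75 ± 0.35 for Arg1, 1.46 ± 0.35 for Cd163 and 0.97 ± 0.29 for Il4ra. In the fit over all genes 7 of the 8 were past an adjusted p of 0.05, beside 3.71% of all genes called higher, and the groups did not overlap for 8 of 8, against 7.94% of all genes wholly above Placebo. Since the genes were chosen with this comparison known, nothing is read from these counts. Without the 3 tumours high in adipocyte genes (Cabozantinib replicate 2 and Combination replicates 1 and 2) the differences were 3.71 for Retnla, 3.27 for Chil3, 1.80 for Mrc1, 1.70 for Clec10a, 1.49 for Arg1, 1.30 for Cd163, 0.75 for Il4ra and 0.65 for Mgl2. In that setting all genes called in either direction were 5 of 17097, where 1771 had been. With the Y-linked level as a covariate Retnla differed by 2.73, Mrc1 by 0.65 and Il4ra by 0.10.

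The antibody alone gave differences above 0 for all 8 genes, none of which passed the test. Against Placebo, Retnla was 3.06 ± 0.66 higher in AntiPD1 tumours (SE, 8.33-fold, adjusted p = 0.111). Mrc1 differed by 1.58 ± 0.50 (adjusted p = 0.158), Clec10a by 1.56 ± 0.53 (adjusted p = 0.163) and Arg1 by 1.34 ± 0.38 (adjusted p = 0.136). Chil3 differed by 1.42 ± 0.98, Il4ra and Mgl2 each by 0.73, with SEs of 0.32 and 0.29, and Cd163 by 0.50 ± 0.38, with adjusted p between 0.207 and 0.486. The limma fit thus called 0 of 8 genes, beside 0.0175% of all genes called higher, and 6 of 8 had an unadjusted p under 0.05. In 5 of 8 genes (Retnla, Arg1, Mrc1, Mgl2 and Clec10a) the 3 AntiPD1 tumours were wholly above Placebo, where 9.22% of all genes were. Retnla alone passed when Cabozantinib replicate 3 was left out, a tumour that enters this comparison only through the shared estimate of spread. Arrays were also weighted by how closely they followed the fit, as estimated from the same data. Then 4 genes passed (Retnla, Arg1, Mrc1 and Clec10a, with adjusted p from 0.0104 to 0.0421), as did 1822 of all 17097 genes in either direction. AntiPD1 replicate 1 had a weight of 3.228 there, against 0.875 and 0.854 for replicates 2 and 3, so that 1 tumour dominated its group.

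Cabozantinib alone gave differences of another order. Chil3 was 2.21 ± 0.86 (SE) above Placebo (adjusted p = 0.294), Retnla 1.84 ± 0.58 (adjusted p = 0.201) and Arg1 1.12 ± 0.33 (adjusted p = 0.174). The lectins differed little, with 0.49 ± 0.44 for Mrc1 (adjusted p = 0.708), 0.26 ± 0.46 for Clec10a (adjusted p = 0.867) and 0.01 ± 0.26 for Mgl2 (adjusted p = 0.994), where the 95% interval of the Mgl2 difference ran from -0.54 to 0.55. Cd163 differed by 0.53 ± 0.33 and Il4ra by 0.33 ± 0.28. None of the 8 passed in the limma fit, 3 had an unadjusted p under 0.05, and 0.111% of all genes were called higher. None was wholly above Placebo, against 1.97% of all genes. Without Cabozantinib replicate 2, Arg1 alone passed.

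Adding the antibody to cabozantinib was compared next. Combination exceeded Cabozantinib by 1.80 ± 0.58 (SE) for Retnla (adjusted p = 0.101), 1.68 ± 0.46 for Clec10a (adjusted p = 0.0822), 1.39 ± 0.44 for Mrc1 (adjusted p = 0.100) and 0.94 ± 0.33 for Cd163 (adjusted p = 0.123). Chil3 differed by 1.18 ± 0.86, Il4ra by 0.65 ± 0.28, Mgl2 by 0.64 ± 0.26 and Arg1 by 0.63 ± 0.33, with adjusted p between 0.158 and 0.446. None passed in limma although 6 had an unadjusted p under 0.05, and 0.00585% of all genes were called higher. Mrc1 and Clec10a did not overlap between these groups, as held for 2.05% of all genes. The count called became 3 without Cabozantinib replicate 3. With array weights it was 4 (Retnla, Mrc1, Cd163 and Clec10a, beside 1441 of all genes). It was 6 without the tumours high in skeletal muscle genes (these 4, Arg1 and Il4ra, beside 3612 of all genes). That setting left out AntiPD1 replicate 2, Cabozantinib replicates 3 and 4 and Combination replicate 4, with skeletal muscle levels from 2.22 to 5.43. Cabozantinib replicates 3 and 4 were the highest of their group for 4 and 3 members, and Combination replicate 4 the lowest for 5. Leaving out the highest Cabozantinib or lowest Combination tumours raises a difference by itself. The part of this in the count was not tested.

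Adding cabozantinib to the antibody gave differences from -0.08 for Mgl2 to 1.98 for Chil3. Chil3 (1.98 ± 0.98 SE, adjusted p = 0.736) and Cd163 (0.96 ± 0.38, adjusted p = 0.574) were wholly above AntiPD1 in the Combination group, where 4.25% of all genes were. The limma fit called 0 of 8, with 1 unadjusted p under 0.05, and 0.00585% of all genes were called higher. Between the single agents, Cabozantinib was below AntiPD1 by differences of -1.31 ± 0.51 for Clec10a (adjusted p = 0.141), -1.21 ± 0.63 for Retnla (adjusted p = 0.272), -1.09 ± 0.48 for Mrc1 (adjusted p = 0.195) and -0.72 ± 0.28 for Mgl2 (adjusted p = 0.139). Here too limma called none of the 8, with 3 unadjusted p under 0.05, against 2.75% of all genes called lower. Array weights called Retnla, Mrc1 and Clec10a, beside 2864 of all genes in either direction. Only Clec10a did not overlap between the single agents, as held for 5.88% of all genes wholly below.

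**Figure D2:**
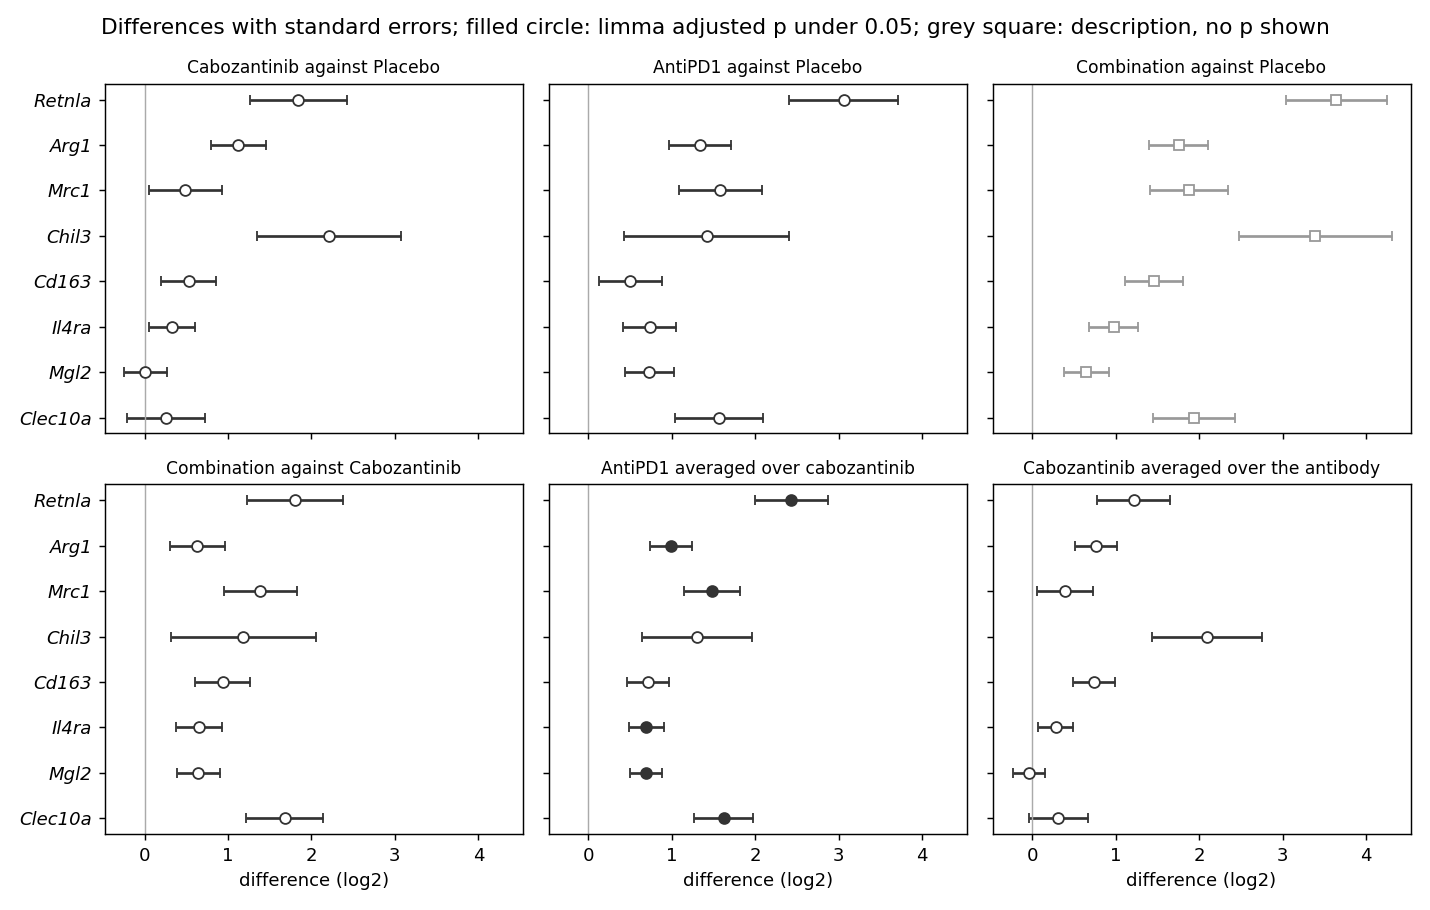
Difference in log2 array signal (horizontal axis) for each of the 8 genes (vertical axis) in 6 comparisons; points are estimates, bars are SEs, filled circles passed an adjusted p of 0.05 in limma and grey squares are a description with no p shown. Filled circles appear in the averaged antibody comparison for 6 genes, and Retnla has the highest point in each panel with the antibody.

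Over both antibody groups the antibody effect was measured on more tumours. This comparison averages AntiPD1 against Placebo and Combination against Cabozantinib, so it shares the Combination and Placebo tumours with the comparison on which genes were chosen and is not independent of it. Retnla rose by 2.43 ± 0.44 (SE, 5.39-fold, adjusted p = 0.0103). Clec10a rose by 1.62 ± 0.35 (adjusted p = 0.0137), Mrc1 by 1.49 ± 0.33 (adjusted p = 0.0146), Arg1 by 0.99 ± 0.25 (adjusted p = 0.0202), Mgl2 by 0.69 ± 0.19 (adjusted p = 0.0284) and Il4ra by 0.69 ± 0.21 (adjusted p = 0.0363). Chil3 (1.30 ± 0.66, adjusted p = 0.180) and Cd163 (0.72 ± 0.25, adjusted p = 0.0599) did not pass. In all 6 of 8 were called higher, beside 8.33% of all genes, and the members' median difference was 1.14 where that of all genes was -0.03. These are descriptions, because part of the difference was known when the genes were chosen.

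With any 1 tumour left out, Retnla (adjusted p from 0.00182 to 0.0403) and Clec10a (0.00504 to 0.0492) stayed past the threshold. The Mrc1 difference then ran from 1.28 to 1.61 and that of Arg1 from 0.83 to 1.10. Without AntiPD1 replicate 2 only Retnla and Clec10a passed. Without the 3 tumours high in adipocyte genes none was called in limma, nor was any of all 17097 genes, while 6 of 8 members and 3967 of all genes had an unadjusted p under 0.05. The differences were then 2.29 for Retnla (adjusted p = 0.0764), 1.31 for Clec10a, 1.27 for Mrc1, 0.70 for Arg1, 0.60 for Mgl2 and 0.49 for Il4ra. With the Y-linked level as a covariate limma called 0 of 8 and 0 of all genes, with an unadjusted p under 0.05 for 1 member and 998 genes, and the Retnla difference was 1.46 (adjusted p = 0.846).

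The adipocyte level ran from -0.73 to -0.15 in Placebo, -0.53 to 0.23 in AntiPD1, -0.87 to 2.46 in Cabozantinib and -0.14 to 1.77 in Combination. Of its defining genes, Adipoq averaged 5.01 ± 1.39 (SD, n = 4) in Placebo and 9.44 ± 2.04 (n = 4) in Combination. The part of these cells in the differences was not tested beyond these settings.

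**Figure D3:**
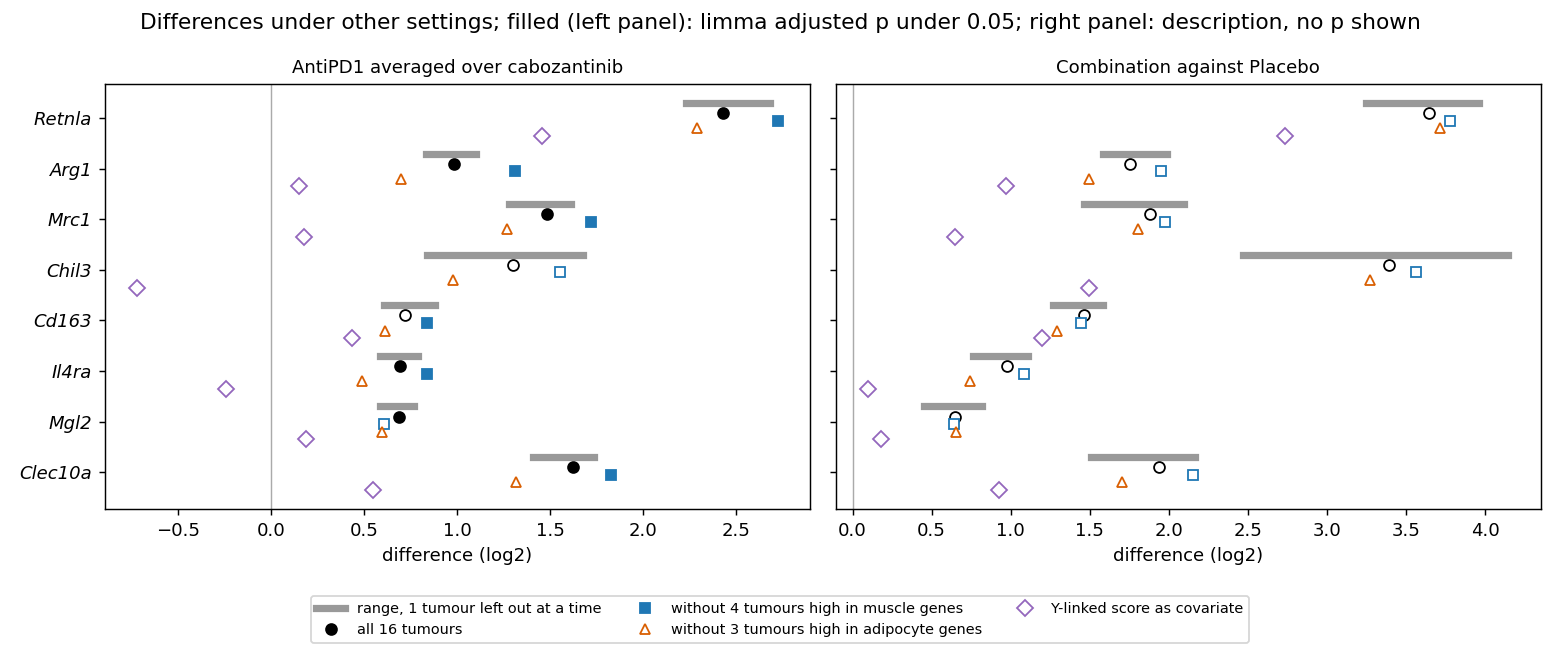
Log2 difference (horizontal axis) of the 8 genes (vertical axis) for the averaged antibody comparison and for Combination against Placebo; grey bars span the fits that leave out 1 tumour at a time and symbols are the fits named in the legend, filled in the left panel where the adjusted p was under 0.05. All symbols for Retnla are above 0, and with the Y-linked covariate Chil3 and Il4ra fall below 0 in the left panel, at -0.72 and -0.24.

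Cabozantinib averaged over the antibody gave its highest difference for Chil3, at 2.09 ± 0.66 (SE, 4.27-fold, adjusted p = 0.116). Retnla differed by 1.22 ± 0.44 (adjusted p = 0.171), Arg1 by 0.77 ± 0.25 (adjusted p = 0.131) and Cd163 by 0.74 ± 0.25 (adjusted p = 0.145). The limma fit called 0 of 8, while 4 had an unadjusted p under 0.05 and 0.86% of all genes were called higher. This comparison too shares the Combination and Placebo tumours with the one on which genes were chosen. Arg1 passed with array weights, and Arg1, Chil3 and Il4ra passed with the Y-linked level as a covariate. The interaction, which asks whether the drugs together differ from the sum of each alone, called 0 of 8 and 0% of all genes in limma, with no unadjusted p under 0.05 among the 8. Its estimates were -1.26 ± 0.87 for Retnla and -0.71 ± 0.50 for Arg1, and the 95% interval for Retnla reached from -3.12 to 0.61.

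Because the pan-macrophage level itself moved with the antibody, each gene was also measured relative to it, by subtracting the mean of the 18 pan-macrophage genes of the same array. Of those 18 genes 16 rose with the antibody on average, Adgre1 by 1.75 ± 0.38 (SE, adjusted p = 0.014), Cd68 by 1.30 ± 0.30 (adjusted p = 0.0158) and Csf1r, the receptor for the macrophage growth factor CSF1, by 1.16 ± 0.33 (adjusted p = 0.029). Their median difference of 1.13 was close to the members' 1.14. Subtraction shifts all genes that do not follow macrophages, so that 92.5% of all genes were called lower with the antibody on this scale and 0.175% higher. It also gives all genes a common spread, toward which limma draws each gene's own. The SDs within groups on this scale were 0.26 for Mrc1, 0.31 for Arg1 and 1.02 for Chil3. The SEs of their Cabozantinib against Placebo differences were closer together, at 0.42, 0.42 and 0.49. Adjusted p on this scale thus depends on that shared spread and not only on a gene's own spread between tumours.

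Retnla remained higher on this scale. Its relative values were -1.83, -2.25, -2.22 and -0.63 in the Placebo tumours, 0.45, 0.55 and -0.23 in AntiPD1, 0.94, 0.27, 1.22, -0.37 and -0.96 in Cabozantinib and 0.89, 0.20, 1.26 and 0.63 in Combination. The averaged antibody difference was 1.26 ± 0.34 (SE, adjusted p = 0.00116), and Retnla was the 1 member called higher of 8. As before subtraction this is a description, because the comparison shares the Combination and Placebo tumours with the one on which genes were chosen. The same holds for cabozantinib averaged over the antibody. With the pan-macrophage mean as a covariate in place of the subtraction the Retnla difference was 1.27 ± 0.49 (adjusted p = 0.511) and limma called 0 of 8 members and 0 of all genes, with 1 member and 1432 genes at an unadjusted p under 0.05. AntiPD1 alone differed from Placebo by 1.99 ± 0.52 for Retnla (adjusted p = 0.0677, with 0% of all genes called higher). The corresponding Retnla difference for Cabozantinib alone was 1.95 ± 0.45 (adjusted p = 0.0542), and for cabozantinib averaged over the antibody 1.22 ± 0.34 (adjusted p = 0.215). The unadjusted limma p for Retnla were close, at 0.000436 for the averaged antibody and 0.000613 for averaged cabozantinib. Their adjusted p differ because 92.5% of all genes were called lower with the antibody, so that p there is adjusted little. With averaged cabozantinib 12 genes were called higher and 20 lower. The gap in adjusted p is thus not read as a difference between the drugs. Combination exceeded Placebo by 2.48 ± 0.48 for Retnla and by 2.23 ± 0.52 for Chil3, the 2 members of 8 past the threshold beside 0.31% of all genes, again a description.

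Mrc1 rose with the pan-macrophage genes, though relative to them its group mean stayed lowest in Placebo. Its relative values were -0.66, -1.09, -0.17 and -0.20 in Placebo, 0.10, 0.18 and -0.32 in AntiPD1, and between -0.10 and 0.31 in all 9 tumours that had received cabozantinib. Those 9 tumours were thus above every Placebo tumour. The differences from Placebo were 0.60 ± 0.42 (SE) for Cabozantinib, 0.51 ± 0.48 for AntiPD1 and, as a description, 0.71 ± 0.44 for Combination. Neither single agent was called in limma. The averaged antibody difference was 0.31 ± 0.32 (SE, adjusted p = 0.339), where it had been 1.49 before subtraction. The members' median on this scale was -0.03. Combination against Cabozantinib, Combination against AntiPD1 and the interaction each had 0 of 8 members called on this scale, where 0.0877%, 0.0292% and 0% of all genes were called, the first 2 counted as higher. Cabozantinib against AntiPD1 had 3 of 8 called higher, but so were 82% of all genes.

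On the relative scale Chil3 was higher with cabozantinib. Placebo tumours read -0.60, -4.41, -2.48 and -1.78 and AntiPD1 tumours -1.27, -1.96 and -2.68, against 0.90, -0.66, 0.66, -1.01 and 0.13 in Cabozantinib and -0.76, 0.57, 0.15 and -0.30 in Combination tumours. Apart from Placebo replicate 1, every tumour without cabozantinib was below every tumour with it. Chil3 rose by 2.10 ± 0.37 (SE, adjusted p = 0.000296) with cabozantinib averaged over the antibody, the 1 member of 8 called beside 0.0702% of all genes called higher. Its own SD within groups was 1.02, and limma drew its SE down toward the spread shared over all genes. Before subtraction that Chil3 difference was 2.09 ± 0.66 (adjusted p = 0.116) and was not called. Cabozantinib alone differed from Placebo by 2.32 ± 0.49 (adjusted p = 0.0198), 1 of 8 beside 0.0292% of all genes. That count for Cabozantinib alone was 0 without Placebo replicate 2, Placebo replicate 3 or Cabozantinib replicate 1. With the pan-macrophage mean as a covariate Chil3 differed by 2.40 ± 0.57 for Cabozantinib alone (adjusted p = 0.0505), and the 2 members called there were Retnla (1.95, adjusted p = 0.0434) and Arg1 (1.20, adjusted p = 0.00471), beside 297 of all genes in either direction. For cabozantinib averaged over the antibody the members called with that covariate were Arg1 and Chil3, beside 876 of all genes. Whether the response to cabozantinib differs between Chil3 and the other members was not tested.

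Arg1 on the relative scale read 0.96, 0.96, 0.37 and 0.84 in Placebo, 1.18, 0.65 and 1.33 in AntiPD1, 2.44, 2.21, 1.49, 1.91 and 2.02 in Cabozantinib and 1.62, 1.38, 1.42 and 1.06 in Combination tumours. All 5 Cabozantinib tumours were above all Placebo tumours, as they were for Mrc1. The share of all genes that did so on this scale was not counted, so nothing is read from it. The difference of 1.23 ± 0.42 (SE) did not pass when the macrophage mean was subtracted (limma adjusted p = 1, unadjusted p = 0.00459), whereas it passed with that mean as a covariate. The SE after subtraction is set in part by the spread shared over all genes.

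**Figure D4:**
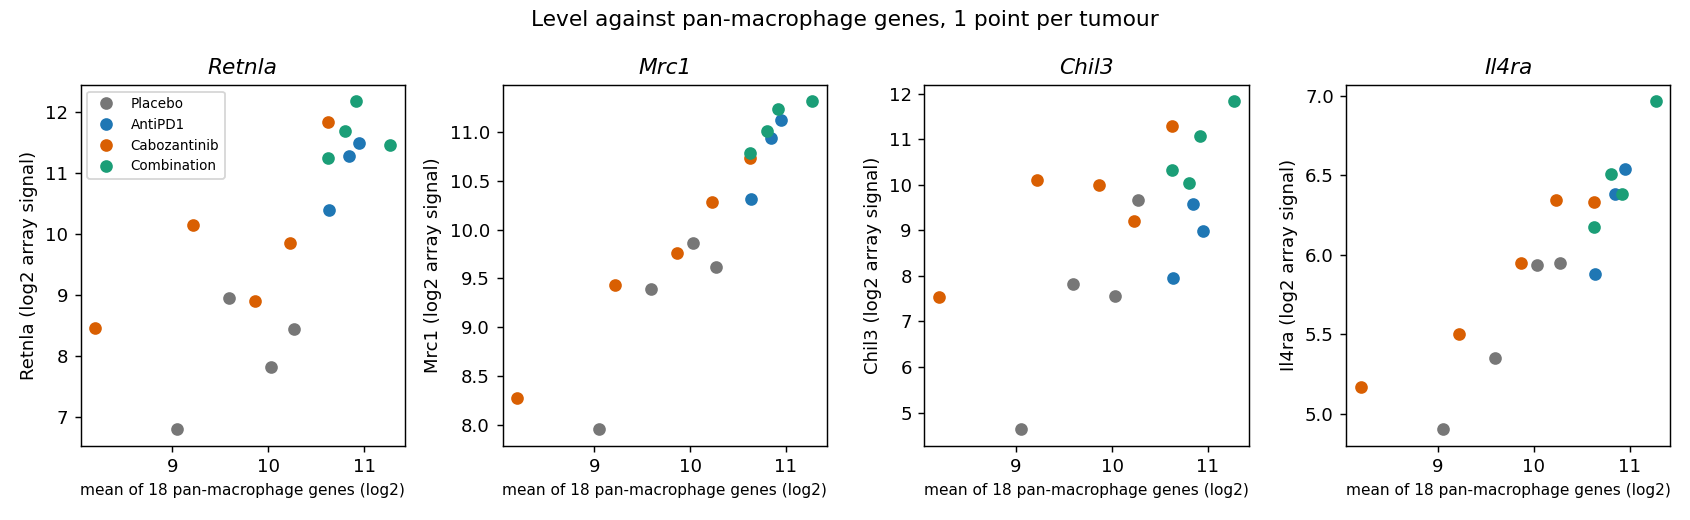
Log2 array signal of Retnla, Mrc1, Chil3 and Il4ra (vertical axes) against the mean of 18 pan-macrophage genes (horizontal axes, log2) in 16 tumours coloured by group. Mrc1 lies close to a single line, with Placebo replicates 1 and 2 below it. Relative to the pan-macrophage level the Placebo tumours lie low for Retnla, except that Placebo replicate 4 lies above Cabozantinib replicate 5. Cabozantinib and Combination tumours lie high for Chil3, but Placebo replicate 1 lies above Cabozantinib replicates 2 and 4 and Combination replicate 1.

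Within groups the members differed in how they followed the macrophage genes from tumour to tumour. After removal of group means, Pearson's r with the pan-macrophage mean over 16 tumours was 0.94 for Mrc1, 0.91 for Il4ra, 0.87 for Arg1, 0.80 for Clec10a, 0.76 for Chil3, 0.66 for both Retnla and Mgl2 and 0.21 for Cd163. For Retnla it was 0.27 without the 2 tumours farthest from the median, so that its relation rested on those. These are descriptions, and tumours of a group share treatment and normalization. Among pairs of members Mrc1 was most like Clec10a and Il4ra, with r = 0.91 for both, and Retnla was most like Clec10a, with r = 0.81. The neighbours Mgl2 and Clec10a had r = 0.57.

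Of 10134 genes searched in the same way, the closest to each member was Alox5ap for Mrc1 (r = 0.97), Casp4 for Arg1 (r = 0.95), Tor1aip1 for Il4ra (r = 0.98), Chil4 for Chil3 (r = 0.98), Cd34 for Retnla (r = 0.88), F13a1 for Clec10a (r = 0.90), Ccdc68 for Mgl2 (r = 0.90) and Ankrd33b for Cd163 (r = 0.95). The next in likeness were Ms4a7 and Dclk1 for Mrc1, Clec3b and Rab27b for Retnla, and Ccl8 and Pdpn for Clec10a.

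Other genes of alternative activation were also higher with the antibody. Of 31 such genes 15 rose and 1 fell in the averaged antibody comparison, with a median difference of 0.61, where 1424 of all 17097 genes rose and 1651 fell. Relative to the pan-macrophage genes 2 of the 31 were called higher and 13 lower (median -0.56), against 30 and 15815 of all genes (median -1.20). Folr2, a folate receptor of tissue macrophages, rose by 2.33 ± 0.42 (SE, adjusted p = 0.0103), Igf1, a growth factor, by 2.18 ± 0.38 (adjusted p = 0.0101), Cd36, a receptor for lipids, by 1.66 ± 0.39 (adjusted p = 0.0158) and Stab1, a scavenger receptor, by 1.49 ± 0.24 (adjusted p = 0.00995). The chemokine Ccl22 rose by 0.85 ± 0.21 (adjusted p = 0.017), whereas its neighbour in function Ccl17 did not pass, at 0.02 ± 0.30 (adjusted p = 0.980). The 1 gene that fell was Tfrc, the transferrin receptor, named here after its value was seen (-0.52 ± 0.12, adjusted p = 0.0149). With cabozantinib averaged over the antibody 1 of the 31 rose, the lectin Cd209f (0.97 ± 0.19, adjusted p = 0.0206).

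The cytokines that induce this state were not detected above background. Il4 averaged 4.31 ± 0.18 (SD, n = 4) in Placebo and 4.50 ± 0.12 (n = 4) in Combination, and Il13 4.38 ± 0.16 and 4.46 ± 0.22, with all of these means below the array medians. Of 20 genes of the interleukin-4 and interleukin-13 pathway 5 rose with the antibody and none fell, with a median of 0.27, beside 8.33% of all genes called higher. Relative to the pan-macrophage genes none of the 20 was called higher and 17 were lower (median -0.90), where 92.5% of all genes were lower (median -1.20). Those that rose included Irf4, a transcription factor of alternative activation (0.84 ± 0.19 SE, adjusted p = 0.0142), the interleukin-10 receptor gene Il10ra (0.95 ± 0.29, adjusted p = 0.0356) and the kinase gene Jak1 (0.46 ± 0.14, adjusted p = 0.0385). Stat6 RNA differed by -0.04 ± 0.05 (adjusted p = 0.601) and Il13ra1 by 0.22 ± 0.13 (adjusted p = 0.253).

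Arg1 works within arginine metabolism. Of 12 other genes of that pathway 2 fell with the antibody and none rose: Asl, which makes arginine (-0.37 ± 0.11 SE, adjusted p = 0.0367), and Slc7a1, an arginine transporter (-0.24 ± 0.06, adjusted p = 0.022). Of all 17097 genes 1651 fell and 1424 rose in that comparison. Nos2, which uses arginine to make nitric oxide and marks classical activation, differed by 0.86 ± 0.35 (adjusted p = 0.100) and the second arginase Arg2 by -0.44 ± 0.29 (adjusted p = 0.310). With cabozantinib averaged over the antibody the transporter Slc7a2 rose by 0.76 ± 0.17 (adjusted p = 0.0319) and Srm, the spermidine synthase, fell by 0.39 ± 0.09 (adjusted p = 0.0402), where 147 of all genes rose and 215 fell. In Combination against Placebo 2 of the 12 rose and 1 fell, and 635 of all genes rose and 1136 fell. Relative to the pan-macrophage genes 11 of the 12 were called lower with the antibody on average, but so were 92.5% of all genes.

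Markers of classical activation also changed with the antibody, 5 of 19 higher and 1 lower with a median of 0.54. Relative to the pan-macrophage genes none of the 19 was called higher and 9 were lower. Of all 17097 genes 1424 (8.33%) were called higher and 1651 lower with the antibody before subtraction, and 92.5% were called lower after it. These are the shares to set beside the antibody counts of this paragraph. Cd86, a costimulatory molecule, rose by 1.41 ± 0.30 (adjusted p = 0.0137) and Acod1, which makes itaconate, by 1.39 ± 0.40 (adjusted p = 0.0294). Among other cell types 6 of 10 fibroblast genes, 3 of 3 Y-linked genes, 2 of 11 neutrophil genes, 1 of 12 T cell genes, 1 of 11 dendritic cell genes and 1 of 9 adipocyte genes rose, and none of 12 skeletal muscle or 9 keratinocyte genes passed. Of 8 genes of lymphatic and sinusoidal endothelium 2 rose and 1 fell, and of 12 eosinophil and mast cell genes 1 fell. With cabozantinib averaged over the antibody 7 of these 12 fell, where 215 of all 17097 genes fell. Of 14 hepatocyte and urea cycle genes none rose and 2 fell, and Alb, the hepatocyte albumin, averaged 13.17 ± 0.03 (SD, n = 4) in Placebo and 12.95 ± 0.12 (n = 4) in Combination. The fibroblast level ran from -1.09 to -0.21 in Placebo and from 0.33 to 0.79 in Combination tumours. What these cells add to the members' differences was not tested.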

How the data were processed

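RNA of 16 tumours was measured on 1-colour Affymetrix mouse arrays, 1 array each, from 50 ng of RNA. As deposited, each value is a log2 signal of a probe set that the authors made with RMA, and the R package affy 1.62.0 is named beside it, per the submitters' processing notes. Further settings, detection calls and scan batches are not used here. Of 45141 probe sets, 28898 were paired with 1 gene by the platform annotation, 551 with several, 15588 with none, and 104 were controls. Each of 17097 genes was represented by its probe set of highest average signal across the 16 arrays. No values were missing and no depth applies; the number of arrays limits the precision.

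A group-means model without covariates was fitted to all genes and 16 tumours with limma 3.58.1 in R 4.3.3 (lmFit, eBayes). P-values of 9 contrasts were adjusted over the 17097 genes (Benjamini-Hochberg) at a threshold of 0.05, and every adjusted p given comes from this fit or its repeats. A second fit subtracted each array's mean of 18 pan-macrophage genes. The fit was also run on simulated data, and no result of that run is given or used here. List levels are mean deviations from each gene's mean over 16 tumours. The contrasts share tumours, so their results are not independent.

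Tumours high in adipocyte genes had a list level above 1, and those high in muscle genes above 2. Other settings changed the normalization, probe sets, gene filter, variance model, array weights, samples, covariates, title numbers as a block or macrophage list. Members and lists were chosen with earlier results of these data known. Named genes are the 8 members, up to 3 called genes of each list with the largest difference, the 3 most alike per member and a panel of known markers.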

Additional observations from a re-analysis of the deposited data

Results flagged for a closer look

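In 2 of 27 groups of 4 or 5 tumours, 1 tumour stood apart from the others of its group by Dixon's criterion, which chance meets in about 1 in 20 groups. Arg1 in Cabozantinib replicate 2 was the lowest of its group at 10.41, with the nearest tumour at 11.66 and the other end of the group at 12.14. Cd163 in Cabozantinib replicate 4 was the highest of its group at 6.10, with the nearest tumour at 4.69 and the other end at 4.24.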

How the results depend on the processing

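The numbers that 4 pairs of tumours share in their titles were entered as a random replicate block, a setting chosen after seeing the data. The labels do not say what the number means, and no more than 2 pairs link the same groups. Over all 17097 genes, deviations from the group means correlated at 0.086, 0.072 and 0.257 in the 3 pairs across groups. The correlation was -0.711 between Cabozantinib replicates 2 and 3, where removal of their shared group mean itself lowers it. Tumours with different numbers were not correlated for comparison, so these values cannot decide whether the numbers mark a pairing. With the block (estimated correlation -0.103) the count of members called stayed within 1.5 times in all 9 contrasts, at 6 for the averaged antibody and 7 for Combination against Placebo. On the relative scale the block's estimated correlation was -0.907, and the members called became 2 in Cabozantinib against Placebo, 2 in Combination against Cabozantinib, 1 in Combination against AntiPD1 and 4 for cabozantinib averaged over the antibody.

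Each member has 1 probe set, so another probe set could not be tried, the fit on only the groups compared gives no value for the interaction and averaged effects, and Cd163 has none under the filter on dim genes. Leaving out Placebo replicate 2 and Cabozantinib replicate 2 together was also chosen after seeing the data. Of 647 values of 63 member results under settings other than a single left-out tumour, 570 kept their direction and side of the threshold, 35 lost it, 31 gained it and 11 changed sign.

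With the Y-linked level as a covariate 1 member was called for Cabozantinib against Placebo (beside 260 of all genes) and 0 for Combination against Placebo (beside 1 of all genes). That covariate also gave 3 for cabozantinib averaged over the antibody and 0 for the averaged antibody. Under it Chil3 and Il4ra became -0.57 and -0.18 in AntiPD1 against Placebo and -0.72 and -0.24 for the averaged antibody. Arg1, Chil3 and Il4ra became -0.22, -0.87 and -0.30 in Combination against Cabozantinib, and Mrc1 0.30 in Cabozantinib against AntiPD1. Without the tumours high in adipocyte genes 0 members were called in Combination against Placebo and 0 for the averaged antibody. Without those high in muscle genes 6 were called in Combination against Cabozantinib, and in Cabozantinib against Placebo Mrc1 became -0.050 and Clec10a -0.20. Array weights gave 4 in AntiPD1 against Placebo, 4 in Combination against Cabozantinib, 3 in Cabozantinib against AntiPD1 and 1 for cabozantinib averaged. Without both replicates 2 the count was 4 in Combination against Placebo (beside 265 of all genes) and 1 for cabozantinib averaged, and Mgl2 became -0.011 in Cabozantinib against Placebo. Of the results that changed sign 1 had passed before (Il4ra, averaged antibody), and 0 passed after. The cause of these changes was not tested, though settings that leave out tumours also have fewer samples.

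Relative to pan-macrophage genes, the 4-gene list gave 2 members in Cabozantinib against Placebo, 1 in AntiPD1 against Placebo and 3 for the averaged antibody. The list median gave 1 in AntiPD1 against Placebo and 1 in Cabozantinib against AntiPD1. The pan-macrophage covariate gave 2 in Cabozantinib against Placebo, 0 in Combination against Placebo, 0 in Cabozantinib against AntiPD1, 2 for cabozantinib averaged and 0 for the averaged antibody. Where no number of all genes called stands beside a count in this section, nothing is read from that count.

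Leaving out 1 tumour at a time, the members called ran from 0 to 1 in Cabozantinib against Placebo, AntiPD1 against Placebo, Cabozantinib against AntiPD1 and cabozantinib averaged, 1 to 7 in Combination against Placebo (1 without Placebo replicate 2 or Combination replicate 2, 2 without Placebo replicate 4, 3 without Placebo replicate 3 or Combination replicate 3, 4 without Combination replicate 1), 0 to 3 in Combination against Cabozantinib and 2 to 7 for the averaged antibody, and were 0 throughout for Combination against AntiPD1 and the interaction. In Cabozantinib against Placebo the difference ran from -0.19 to 0.19 for Mgl2 and from -0.17 to 0.64 for Clec10a. On the relative scale the counts ran from 0 to 2 in Cabozantinib against Placebo, 0 to 1 in AntiPD1 against Placebo, 1 to 4 in Combination against Placebo, 0 to 3 in Cabozantinib against AntiPD1, 1 to 2 for cabozantinib averaged and stayed at 1 for the averaged antibody. Signals near the array medians, as for Cd163, limit what can be separated from background.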
